A study of Mus musculus with 8 samples.

Results

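The 6 genes described here encode proteins that bind or take up free hemoglobin, heme, iron and bacterial siderophores: the receptors Cd163 and Lrp1, the plasma proteins haptoglobin (Hp), hemopexin (Hpx) and ceruloplasmin (Cp), and the siderophore-binding protein lipocalin 2 (Lcn2). They were taken by gene symbol from a count table of 55414 Ensembl mouse genes, and all 6 were found and passed the filter on low counts that left 14655 genes for testing. The cells were Kupffer cells, macrophages that live in the liver sinusoids, sorted by flow cytometry from wild-type C57BL/6J mice. At 2 h before the cells were taken, the mice had caecal ligation and puncture (CLP), which lets gut bacteria into the abdomen and serves as a model of sepsis, or a sham operation (Sham). Bulk RNA was sequenced from 4 CLP and 4 Sham libraries. No mutation, transgene or drug is named for either group. The antibodies and gate of the sort, and whether each library came from its own mouse, are details not given in the sources used here, so p-values measure only the spread between these libraries.

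When red cells rupture, hemoglobin spills into plasma and releases heme, and both damage tissue and feed bacteria. Haptoglobin captures the hemoglobin, and in humans the complex is taken up by CD163 on macrophages. Hemopexin captures free heme, and its complex is taken up by LRP1, a large endocytic receptor of the low-density lipoprotein (LDL) receptor family. Inside the macrophage, heme oxygenase 1 (Hmox1) opens the heme ring and frees its iron, which ferritin stores or ferroportin (Slc40a1) exports. Ceruloplasmin is a copper-containing ferroxidase that oxidises exported iron so that transferrin can carry it. Lipocalin 2 binds enterobactin-type siderophores, the small molecules with which bacteria collect iron. Hepatocytes are the main source of plasma haptoglobin, hemopexin and ceruloplasmin, and neutrophil granules hold much lipocalin 2.

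At 2 h after CLP, transcripts of Lcn2, Cp and Hpx rose, by log2 fold changes of 3.30 ± 0.65, 1.76 ± 0.38 and 0.92 ± 0.32 (SE; edgeR quasi-likelihood test, adjusted p = 0.00151, 0.0027 and 0.0302), while Hp, Lrp1 and Cd163 did not pass the threshold of 0.05. So 3 of the 6 genes were called, all 3 higher in CLP and 0 lower (likewise 0 lower at an unadjusted p under 0.05, with DESeq2 and with limma voom), where 54.3% of all genes tested were called, 24.9% higher and 29.5% lower. Among the 2092 genes with a mean of at least 100 CPM (counts scaled to library size, with factors by the trimmed mean of M-values, TMM), 66.8% were called. The libraries of the groups did not overlap for 2 of the 6 genes, Lcn2 and Cp, both higher in CLP, where 49.5% of all genes tested did not overlap and 22.1% did so by being higher in CLP. DESeq2's test called 5 of the 6, all higher in CLP, where it called 57.4% of all genes, 29.0% higher. Counts over 6 genes carry no test.

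The libraries held 23311897 to 28724875 counts over genes. Of the Kupffer cell markers, all 13 were tested, and their summed level was 35384 to 46247 CPM in CLP, against 27496 to 35296 CPM in Sham, with Clec4f, a lectin particular to Kupffer cells in the mouse, the most abundant. CLP replicate 1 was the least like its group: across genes, its log2 CPM had r = 0.968 to 0.972 with the other CLP libraries, which had 0.986 to 0.987 with each other. Without it the log2 fold changes were 3.60 for Lcn2, 2.03 for Cp, 1.10 for Hpx, 0.74 for Hp, 0.23 for Lrp1 and -0.13 for Cd163. TMM factors were 0.801 to 0.837 in CLP and 1.16 to 1.28 in Sham, and scaling by total counts instead lowers the median log2 fold change of all genes by 0.56. Every log2 fold change here is therefore relative to the bulk of genes, and small ones depend on the scaling. In bulk RNA, fewer cells of a type and less RNA per cell cannot be told apart.

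**Figure D1:**
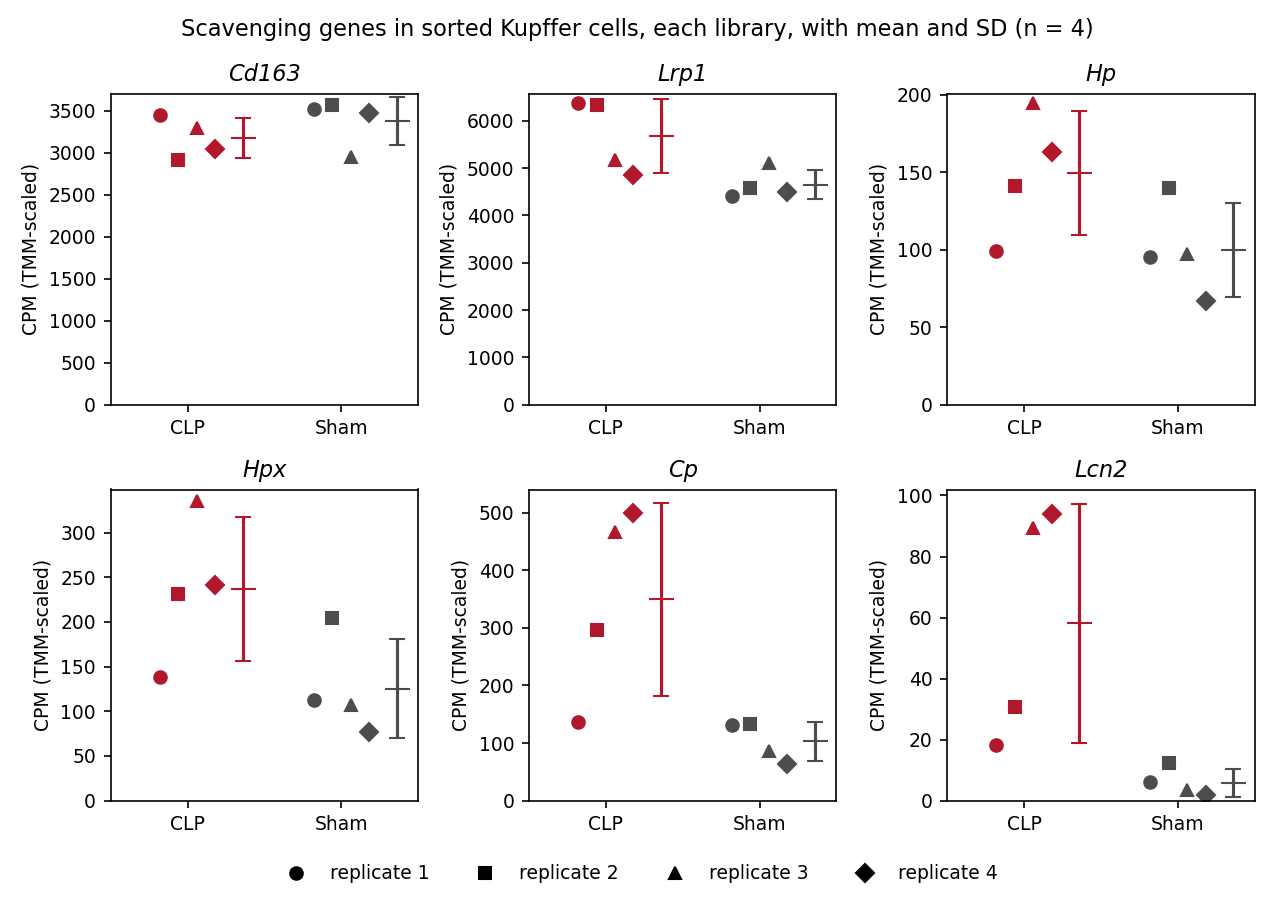
TMM-scaled CPM of the 6 genes in each library, CLP in red and Sham in grey, with a marker shape for each replicate number and, to the right of each group, its mean and SD (n = 4). Lcn2 and Cp show 4 CLP libraries above all 4 Sham libraries, Hpx and Hp overlap, Lrp1 overlaps with 3 of 4 CLP libraries above every Sham library, and Cd163 overlaps widely.

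Cd163 (ENSMUSG00000008845), the macrophage receptor for hemoglobin and for its complex with haptoglobin, stood at 3452, 2919.5, 3294 and 3048 CPM in the 4 CLP libraries and at 3521, 3570.5, 2947 and 3477 CPM in the 4 Sham libraries. The groups overlapped, and the lowest Sham library, replicate 3, lay below 3 of the 4 CLP libraries. Means were 3178 ± 239.6 CPM in CLP, against 3379 ± 291 CPM in Sham (SD, n = 4 each). The log2 fold change was -0.09 ± 0.12, with a 95% interval of -0.35 to 0.18, so that a fold between 0.782 and 1.13 is compatible with these libraries (edgeR's adjusted p = 0.557). With total-count scaling the value was -0.64 (edgeR's adjusted p = 0.000357) and the groups no longer overlapped, the CLP libraries being lower. Relative to the shift of the median of all genes under that scaling, the change was -0.08.

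In humans, CD163 protein can be cut from the cell surface by the protease ADAM17, and IL-10, IL-6, glucocorticoids and MAF factors act on its gene in macrophages. Of the 19 genes listed for this, all tested, 10 rose and 4 fell, for a median log2 fold change of 0.47, against -0.04 for all genes tested. Adam17 rose, with 616 ± 67.6 CPM in CLP, against 341 ± 51.2 CPM in Sham (log2 fold change 0.85 ± 0.14, edgeR's adjusted p = 0.000503). Rhbdf2 (iRhom2), which Adam17 needs to mature, also rose, with a log2 fold change of 2.06 ± 0.19, while Frmd8, which stabilises iRhoms, was at -1.38 ± 0.16 and fell. Timp3, the tissue inhibitor of Adam17, rose by 1.51 ± 0.21. Of the inducers, Il10 was at 931, 1289, 327 and 1181 CPM in the CLP libraries and at 26.6, 21.3, 17.7 and 21.2 CPM in the Sham libraries (log2 fold change 5.42 ± 0.41). Il6 was at 849.5, 917, 139 and 483 CPM in CLP and at 26.6, 14.7, 16.3 and 14.8 CPM in Sham (5.05 ± 0.55). For both cytokines CLP replicate 3 was the lowest CLP library, and it still lay well above every Sham library. The transcription factor Maf (log2 fold change -2.50 ± 0.24) and the Il6 receptor chain Il6ra (-0.60 ± 0.13) fell as well. Cd5l, a secreted scavenger receptor protein of macrophages and relative of Cd163, averaged 6451 ± 683 CPM in CLP, against 5316 ± 844 CPM in Sham, and missed the threshold (edgeR's adjusted p = 0.133). With total-count scaling 8 of the 19 genes were higher and 7 lower, and the list median was -0.08.

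Lrp1 (ENSMUSG00000040249), the hemopexin–heme receptor, was at 6374, 6333, 5179 and 4854 CPM in the CLP libraries and at 4415, 4588, 5109 and 4487 CPM in the Sham libraries. CLP replicates 1 and 2 were the highest, CLP replicate 4 lay below Sham replicate 3, and the groups overlapped by those libraries. Means were 5685 ± 783 CPM in CLP, against 4649.7 ± 314 CPM in Sham. The log2 fold change was 0.29 ± 0.13, with a 95% interval of -0.01 to 0.59 (edgeR's adjusted p = 0.0893). The direction depended on the scaling: it was -0.27 with total counts (edgeR's adjusted p = 0.0829). DESeq2's own test on its own size factors called it higher, with 0.35 (adjusted p = 0.0138).

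Of the listed Lrp1 ligands, chaperones and processing genes, 22 of 25 were tested, 12 rose and 2 fell, for a median log2 fold change of 0.52. Tissue plasminogen activator (Plat), a ligand that rose, had a mean of 1.06 CPM in CLP, against 0.0557 CPM in Sham, so it may have passed the filter on low counts through CLP alone. The endocytic adaptor Dab2 rose, with 1914 ± 442 CPM in CLP, against 443 ± 119 CPM in Sham (log2 fold change 2.11 ± 0.23, edgeR's adjusted p = 3.12e-05). The urokinase receptor Plaur, which Lrp1 clears in complexes, also rose, with a log2 fold change of 5.04 ± 0.30. The abundant ligand Apoe (7954 ± 1767 CPM in CLP, against 6324 ± 429 CPM in Sham) and C1qa, a chain of complement C1q, did not pass (edgeR's adjusted p = 0.107 and 0.278). Nor did the chaperone Lrpap1, which keeps ligands off Lrp1 during folding, at 75.2 ± 9.63 CPM in CLP, against 71.5 ± 6.80 CPM in Sham (edgeR's adjusted p = 0.623). The genes that fell were the chaperone Mesd (-0.44 ± 0.15) and the protease Bace1 (-1.47 ± 0.20). With total-count scaling 9 of these genes were higher and 7 lower.

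Among the other members of the LDL receptor family and its adaptors, 11 of 14 genes were tested, 5 rose and 1 fell, for a median log2 fold change of 0.07. Lrp10 rose by a log2 fold change of 1.38 ± 0.13 and the Wnt co-receptor Lrp6 by 0.58 ± 0.13, while the Wnt co-receptor Lrp5 was at -0.37 ± 0.18 (edgeR's adjusted p = 0.107). Sorl1 and Lrp8 rose as well, but Lrp8 had 160 counts over the 4 CLP libraries and only 25 over the 4 Sham libraries. It may have passed the filter through CLP alone. Lrp2, another endocytic receptor that in kidney takes up lipocalin 2, was below the filter, with 2 counts over the 4 CLP libraries and 6 over the 4 Sham libraries. With total-count scaling 3 of the 11 were higher and 5 lower, and the list median was -0.48. Under that scaling Lrp6 was at 0.03 and did not pass, while Lrp5 was lower (-0.93, edgeR's adjusted p = 0.00132).

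Hp (ENSMUSG00000031722), haptoglobin, was at 99.0, 141, 194 and 163 CPM in the CLP libraries and at 95.3, 140.1, 97.4 and 66.9 CPM in the Sham libraries. Sham replicate 2 was the highest Sham library and reached the level of CLP replicate 2, while CLP replicate 1 stood at Sham levels, so the groups overlapped. Means were 149 ± 40.1 CPM in CLP, against 99.9 ± 30.2 CPM in Sham. The log2 fold change was 0.58 ± 0.24, with a 95% interval of 0.05 to 1.11, and edgeR's adjusted p of 0.0635 missed the threshold. It passed without CLP replicate 1 (0.74, edgeR's adjusted p = 0.0161), without Sham replicate 2 (0.80, edgeR's adjusted p = 0.0158) and in DESeq2's test (0.64, adjusted p = 0.026). With total-count scaling the log2 fold change was 0.03.

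Hpx (ENSMUSG00000030895), hemopexin, was at 139, 231, 335 and 242 CPM in the CLP libraries and at 113, 205, 107 and 76.8 CPM in the Sham libraries. The groups overlapped because CLP replicate 1 was low and Sham replicate 2 was high, the same libraries as for Hp. Means were 237 ± 80.2 CPM in CLP, against 125 ± 55.3 CPM in Sham. The log2 fold change was 0.92 ± 0.32, with a 95% interval of 0.22 to 1.61 (edgeR's adjusted p = 0.0302). The call was lost with total-count scaling (0.37, edgeR's adjusted p = 0.292), with no filter on low counts (0.86, edgeR's adjusted p = 0.151), and without any of CLP replicates 2, 3 and 4 or Sham replicates 1, 3 and 4 (edgeR's adjusted p = 0.0552 to 0.0902). Without Sham replicate 2 it was 1.27 (edgeR's adjusted p = 0.00387).

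**Figure D2:**
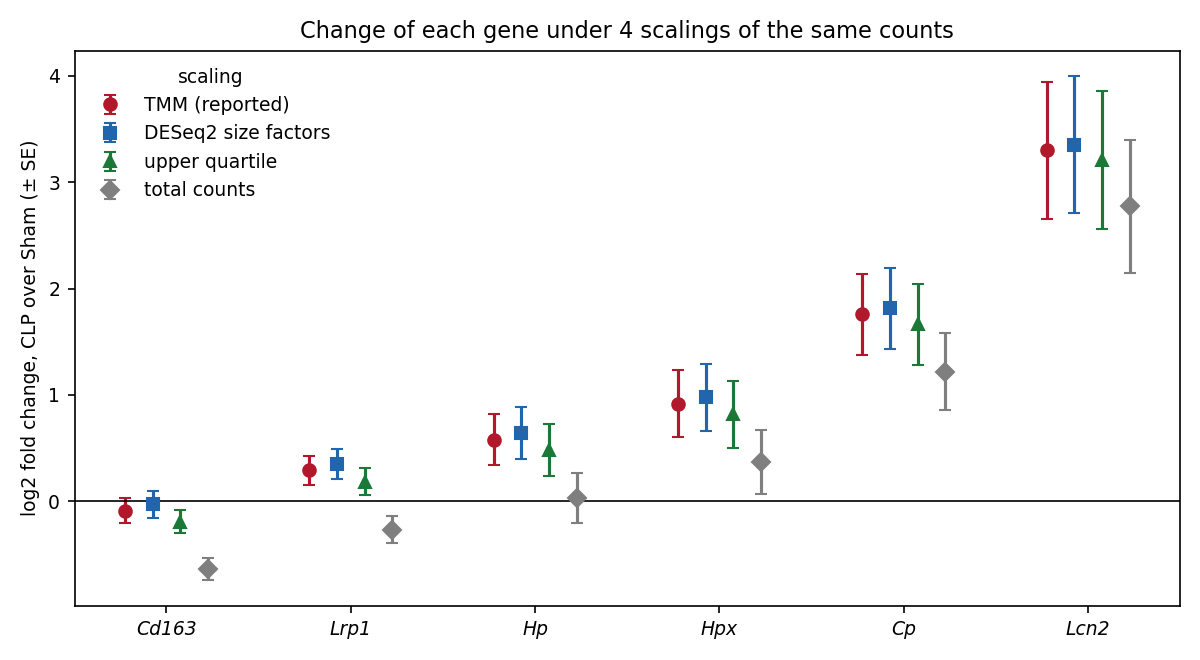
Log2 fold change of CLP over Sham with its SE for the 6 genes, when the same counts are scaled by TMM, DESeq2 size factors, upper quartile factors or total counts. Total-count scaling moves every gene down by about the same amount: Lcn2 (2.77) and Cp (1.22) stay above 0, Lrp1 changes sign (-0.27), and Cd163 is lower (-0.64).

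Hepatocyte transcripts were counted in all libraries and are given here beside Hp and Hpx. All 20 hepatocyte markers were tested and 0 rose or fell by edgeR's adjusted p (median log2 fold change 0.19). At an unadjusted p under 0.05, 2 were higher and 2 lower, DESeq2 called 3 higher and limma voom 1 higher. By edgeR's adjusted p, 4 were higher without CLP replicate 1 and 9 lower with total-count scaling. Their summed level was 3794 ± 461 CPM in CLP, over a range of 3420.1 to 4439, and 3173 ± 420.3 CPM in Sham, over a range of 2677 to 3668 (exact permutation test, two-sided, p = 0.114, where the smallest possible is 0.0286). None of the markers was at 0. Albumin (Alb), which also binds heme, was at 2057, 2777, 2212 and 2005 CPM in CLP and at 1912, 2031, 1409 and 1489 CPM in Sham (a log2 difference of 0.40 ± 0.16, edgeR's adjusted p = 0.0569). Sham replicate 2, the Sham library highest in Hp and Hpx, was also the Sham library highest in Alb, but in CLP the highest in Alb was replicate 2 and in Hp and Hpx replicate 3. Ratios of counts within a library do not depend on scaling: Hpx per 100 counts of Alb was 6.75, 8.33, 15.1 and 12.1 in CLP and 5.90, 10.1, 7.62 and 5.16 in Sham. Hp per 100 counts of Alb ranged from 4.81 to 8.79 in CLP and from 4.49 to 6.91 in Sham. Both ratios overlapped between the groups. Cps1, the next most abundant hepatocyte marker, differed in the direction opposite to Alb, with 181 ± 6.09 CPM in CLP, against 249 ± 78.4 CPM in Sham. It did not pass (log2 fold change -0.46 ± 0.19, edgeR's adjusted p = 0.0649), and ratios to Cps1 were not taken. The part of hepatocyte RNA in the values of Hp and Hpx was not tested.

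Hp and Hpx were the most alike of the 15 pairs of these genes. The root mean square difference of their log2 CPM, each centred on its own mean over the 8 libraries, was 0.225, against 0.265 for Cd163 and Lrp1 and 1.96 for Cd163 and Lcn2, the least alike. Hp per 100 counts of Hpx was 58.0 to 71.3 in CLP and 68.4 to 90.8 in Sham. Over all tested genes with a mean of at least 10 CPM, the nearest profiles to that of Hp were those of the fibrinogen chains Fgg (difference 0.107) and Fgb (0.124). The nearest to Hpx were Orm1 (0.185), an acute phase plasma protein, and Myo10 (0.205), an unconventional myosin. These likenesses describe 8 libraries in 2 groups and carry no test.

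Hp and Hpx are acute phase proteins, plasma proteins whose synthesis in the liver changes with inflammation. Of 20 others listed, 19 were tested, 11 rose and 0 fell (likewise 0 lower at an unadjusted p under 0.05 and by both other tools), for a median log2 fold change of 0.80, and with total-count scaling 2 were higher. Complement C3, the most abundant, averaged 705 ± 121 CPM in CLP, against 483 ± 123 CPM in Sham (0.55 ± 0.20, edgeR's adjusted p = 0.0379). Fgb rose by 0.58 ± 0.20 and Fgg by 0.64 ± 0.21, while the third fibrinogen chain Fga, at 0.35 ± 0.20, did not pass (edgeR's adjusted p = 0.163). Saa3, a serum amyloid A that macrophages also make, stood at 13.7, 33.4, 193 and 91.2 CPM in CLP and at 4.86, 1.68, 1.64 and 2.17 CPM in Sham. Saa1, the main liver form in plasma, stood at 20.7, 35.4, 67.8 and 70.4 CPM in CLP and at 16.8, 43.3, 27.5 and 16.9 CPM in Sham, where the groups overlapped (edgeR's adjusted p = 0.0864). CLP replicate 1 was the lowest CLP library for both.

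For the remaining heme and hemoglobin defence genes, 14 of 16 were tested, 6 rose and 1 fell, for a median log2 fold change of 0.38. Hmox1 rose, with 6375 ± 1114 CPM in CLP, against 1860.4 ± 364 CPM in Sham (1.78 ± 0.18, edgeR's adjusted p = 2.43e-05). Blvra, the biliverdin reductase that acts after Hmox1, rose by 0.87 ± 0.10, the lysosomal heme transporter Slc48a1 by 0.77 ± 0.14, and Prdx1, a peroxiredoxin that also binds heme, by 1.32 ± 0.23. The heme exporters Flvcr1 and Abcg2 were the other genes that rose, and the heme-binding protein Hebp1 fell (-0.44 ± 0.10). Ambp, the precursor of the heme-binding plasma protein alpha-1-microglobulin, was at 72.1 ± 22.0 CPM in CLP, against 47.5 ± 16.7 CPM in Sham, and missed the threshold (edgeR's adjusted p = 0.0687). With total-count scaling 3 of the 14 were higher and 6 lower. The globin genes themselves were nearly absent: Hba-a1 had 1 count in CLP and 0 in Sham, while Hbb-bs was at 1.54, 1.62, 1.6 and 1.41 CPM in CLP and at 0.367, 1.43, 0.168 and 0.428 CPM in Sham (edgeR's adjusted p = 0.0476). Sham replicate 2, the Sham library highest in Hp, Hpx and Lcn2, was also the highest Sham library for Hbb-bs.

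Cp (ENSMUSG00000003617), ceruloplasmin, was at 137, 296, 467 and 499.8 CPM in the CLP libraries and at 131, 133, 86.4 and 63.9 CPM in the Sham libraries. CLP replicates 3 and 4 were the highest, and CLP replicate 1 lay just above the highest Sham library, so the groups did not overlap but nearly touched. Means were 350 ± 168 CPM in CLP, against 103 ± 33.9 CPM in Sham. The log2 fold change was 1.76 ± 0.38 (edgeR's adjusted p = 0.0027), a 3.38-fold difference with a 95% interval of 1.89 to 6.06. Cp remained past the threshold in every alternative fit and without each library in turn, with log2 fold changes of 1.22 to 2.03, and with total-count scaling the groups overlapped. Per 100 counts of Alb, Cp was at 6.64, 10.6, 21.1 and 24.9 in CLP and at 6.84, 6.53, 6.13 and 4.29 in Sham, where only CLP replicate 1 lay among the Sham libraries. The nearest profiles to that of Cp were Tmc3 (0.229), a transmembrane channel-like gene, and Inhbb (0.244), the beta B subunit of inhibins and activins.

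Of the 9566 annotated exon bases of Cp, 108 lie in exons of Hps3, a gene of lysosome-related organelle biogenesis on the opposite strand, and the strand setting of the count is not given in the sources used here. Hps3 fell, with 58.3 ± 5.16 CPM in CLP, against 117 ± 10.4 CPM in Sham (log2 fold change -1.01 ± 0.11, edgeR's adjusted p = 3.16e-05), the direction opposite to that of Cp. The part of reads from one gene in the count of the other was not tested.

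Of the other ferroxidases, iron and copper carriers and siderophore handling genes, 16 of 18 were tested, 10 rose and 1 fell, for a median log2 fold change of 0.78. Lactoferrin (Ltf), which rose, had 430 counts over the CLP libraries and 7 over the Sham libraries, so that it may have passed the filter through CLP alone, and it is also a neutrophil marker. The gene that fell was ferroportin, Slc40a1, the exporter with which ceruloplasmin works, at 2450.5 ± 451 CPM in CLP, against 4345 ± 353 CPM in Sham (-0.83 ± 0.15, edgeR's adjusted p = 0.000937). The copper transporters that feed cuproproteins rose, Slc31a1 by 0.84 ± 0.16 and Atp7a, which loads copper into secreted enzymes, by 1.14 ± 0.11. Ferritin heavy chain Fth1, itself a ferroxidase, rose, with 4642 ± 489.5 CPM in CLP, against 1119 ± 192 CPM in Sham (2.05 ± 0.15). Transferrin (Trf), which takes up the oxidised iron, was at 2218 ± 215 CPM in CLP, against 1737 ± 201 CPM in Sham (0.35 ± 0.13, edgeR's adjusted p = 0.0413), and was at -0.20 with total-count scaling. Heph, the membrane-bound homologue of Cp, was scarce, with 0.530 ± 0.328 CPM in CLP, against 0.307 ± 0.10 CPM in Sham (edgeR's adjusted p = 0.195). With total-count scaling 6 of the 16 were higher and 3 lower.

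Lcn2 (ENSMUSG00000026822), lipocalin 2, was at 18.4, 30.7, 89.5 and 93.8 CPM in the CLP libraries, from 442, 586, 1953 and 1923 counts. In the Sham libraries it was at 6.02, 12.2, 3.45 and 1.86 CPM, from 197, 400, 103 and 61 counts. Every CLP library lay above every Sham library, and within CLP replicates 3 and 4 were the highest. Means were 58.1 ± 39.1 CPM in CLP, against 5.88 ± 4.54 CPM in Sham. The log2 fold change was 3.30 ± 0.65 (edgeR's adjusted p = 0.00151), a 9.85-fold difference with a 95% interval of 3.65 to 26.6. It passed in every alternative fit and without each library in turn, between 2.77 and 3.94. The nearest profiles, Zfp811 (0.606), a zinc finger gene, and Akap12 (0.647), a kinase anchoring protein, were farther from Lcn2 than the nearest profiles of the other 5 genes were from theirs.

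Neutrophil transcripts are given beside Lcn2. Of 18 neutrophil markers 10 were tested and all 10 rose. Of these, 4 were under 1 CPM in Sham and may have passed the filter on low counts through CLP alone. The summed level of the 18 was 545 ± 114 CPM in CLP, over a range of 432 to 650.1, and 129.9 ± 21.9 CPM in Sham, over a range of 106 to 156 (exact permutation test, two-sided, p = 0.0286, the smallest possible, or 0.0476 adjusted over 10 marker lists). With total-count scaling the ratio of the sums was 2.86 in place of 4.19, with the same exact p of 0.0286 but an adjusted exact p of 0.143. Fcnb was the marker at 0. Csf3r, the most abundant of the markers, was at 246 ± 73.6 CPM in CLP, against 99.1 ± 14.9 CPM in Sham. It thus made up most of the Sham sum, and its log2 fold change was 1.31 ± 0.22 (edgeR's adjusted p = 0.000541). S100a8, a calcium-binding protein abundant in neutrophils, was at 18.9, 33.2, 86.5 and 69.0 CPM in CLP and at 1.65, 1.62, 0.872 and 0.764 CPM in Sham. Its partner S100a9 was at 20.4, 35.6, 99.3 and 93.6 CPM in CLP and at 2.32, 1.46, 0.905 and 0.580 CPM in Sham. For Lcn2, S100a8 and S100a9 alike, CLP replicates 3 and 4 were high and CLP replicates 1 and 2 lower. Ltf, lactoferrin, which sits with lipocalin 2 in the specific granules of neutrophils, was at 0.749, 1.41, 5.73 and 12.7 CPM in CLP and at 0.153, 0.0305, 0.0335 and 0 CPM in Sham. Lcn2 counts per 100 counts of S100a8 plus S100a9 were 46.8, 44.6, 48.2 and 57.7 in CLP and 152, 396, 194 and 139 in Sham. This ratio, which does not depend on scaling, was lower in every CLP library than in every Sham library, and its spread was 5.76 (SD) in CLP and 119.7 in Sham. Its divisor was small in Sham, where S100a8 had 25 to 54 and S100a9 19 to 76 counts per library, so the Sham ratios are imprecise. The part of neutrophil RNA in the level of Lcn2 was not tested.

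**Figure D3:**
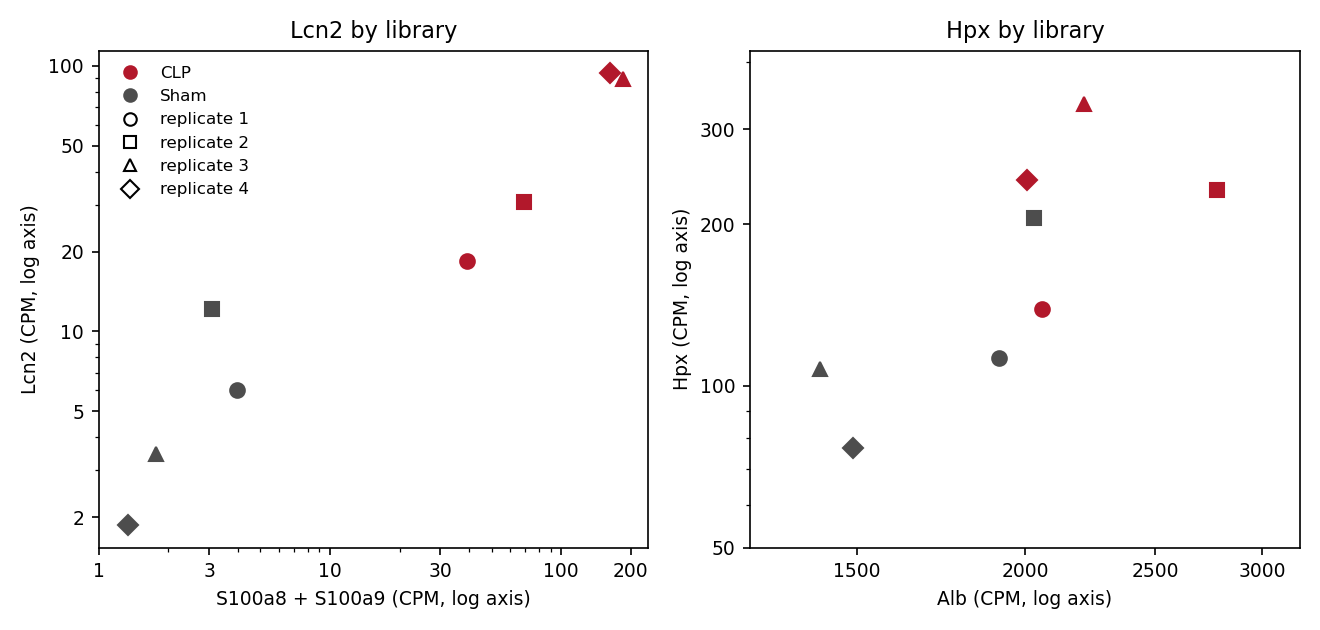
Left, Lcn2 against the sum of S100a8 and S100a9 in each library, and right, Hpx against Alb, all in TMM-scaled CPM on log axes, CLP in red and Sham in grey, with a marker shape for each replicate number. The CLP libraries lie higher on both axes on the left, with replicates 3 and 4 at the top, while on the right Alb spans 2005 to 2777 CPM in CLP, against 1409 to 2031 CPM in Sham, and does not order the CLP libraries by Hpx.

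Genes that induce Lcn2 and acute phase genes were examined next. Of 23, 21 were tested, 14 rose and 4 fell, for a median log2 fold change of 1.34, and with total-count scaling 14 were higher and 5 lower. The cytokine oncostatin M (Osm), which rose, averaged 0.846 CPM in CLP, against 0.267 CPM in Sham, so it may have passed the filter through CLP alone. Nfkbiz, the nuclear cofactor that NF-kB needs for Lcn2 transcription, rose to a narrow range of levels: 1074, 1011, 1031 and 1035 CPM in CLP, against 307, 177, 155 and 136 CPM in Sham (2.42 ± 0.24, edgeR's adjusted p = 1.87e-05). Among the CLP libraries Nfkbiz thus varied far less than Lcn2 did. Il1b rose, with 3026 ± 1672 CPM in CLP, against 283 ± 136 CPM in Sham (3.42 ± 0.46), and so did Cd14, the co-receptor for bacterial lipopolysaccharide (3.24 ± 0.34). Cebpb and Cebpd, the C/EBP factors of the acute phase, rose by 0.96 ± 0.14 and 1.14 ± 0.25. Among those that fell were Cebpa (-3.38 ± 0.21) and the hepatocyte factors Hnf4a (-0.88 ± 0.21) and Foxa2 (-1.85 ± 0.60). Slc22a17, the receptor described for lipocalin 2 uptake, was at 11, 9.43, 6.92 and 7.46 CPM in CLP and at 9.87, 11.3, 10.5 and 10.3 CPM in Sham. It did not pass (-0.26 ± 0.17, edgeR's adjusted p = 0.198), and its groups overlapped. With total-count scaling Slc22a17 was lower in CLP (-0.82, edgeR's adjusted p = 0.00155) and its groups did not overlap.

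Of 16 other secreted antimicrobial and iron-withholding genes, 12 were tested, 11 rose and 0 fell (0 lower at an unadjusted p under 0.05 and by both other tools), for a median log2 fold change of 4.24. Of the tested genes, 6 were under 1 CPM in Sham, where all but Lyz1 rose and may have passed the filter through CLP alone, and 3 (S100a8, S100a9 and Ltf) are on the neutrophil list as well. Acod1, which makes itaconate, rose, with 228 ± 64.5 CPM in CLP, against 11 ± 7.36 CPM in Sham (4.38 ± 0.46). Lysozyme Lyz2, abundant in macrophages, had 4586 ± 609.7 CPM in CLP, against 3269 ± 418 CPM in Sham (0.49 ± 0.15), and Lgals3 274 ± 21.2 CPM in CLP, against 197 ± 14.4 CPM in Sham (0.47 ± 0.11). Both passed with TMM but were at -0.06 and -0.08 with total-count scaling. Hamp, hepcidin, the hormone that removes ferroportin from the cell surface, was scarce, with 6.69 ± 2.35 CPM in CLP, against 3.27 ± 1.70 CPM in Sham (1.03 ± 0.40, edgeR's adjusted p = 0.0476). With total-count scaling it missed the threshold (0.46).

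**Figure D4:**
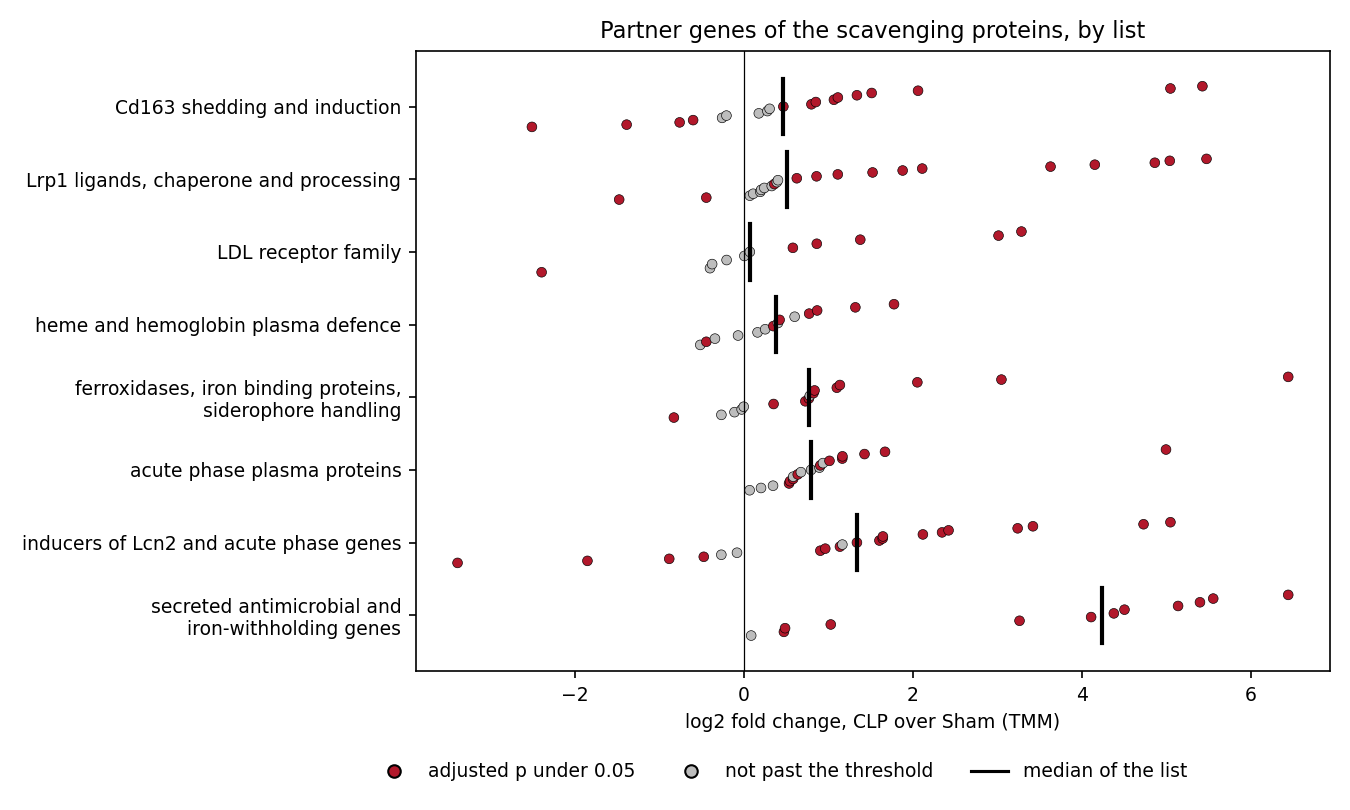
Log2 fold change of CLP over Sham (TMM) for every tested gene of the 8 partner lists, with a point per gene, red where edgeR's adjusted p was under 0.05 and grey otherwise, and a vertical line at each list's median. Medians run from 0.07 for the LDL receptor family to 4.24 for the secreted antimicrobial genes.

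Marker sums of the remaining lists are given as ratios. The summed level in CLP over that in Sham was 1.22 for Kupffer cells, 1.39 for sinusoidal endothelium, 1.40 for stellate cells and fibroblasts, 1.36 for platelets and 3.18 for erythroid cells. Each of these had p = 0.0286 (exact permutation test, two-sided; 0.0476 adjusted over 10 lists). Ratios were 1.21 for monocytes (exact p = 0.114), 1.21 for lymphocytes (exact p = 0.4) and 3.01 for cholangiocytes and mesothelium (exact p = 0.114), the last from sums of 7.87 CPM in CLP, against 2.61 CPM in Sham. With total-count scaling the ratios for Kupffer cells, hepatocytes, endothelium, stellate cells, platelets, monocytes and lymphocytes were below 1, and 0 of the 10 sums passed after adjustment (the lowest adjusted exact p was 0.143), while the neutrophil and erythroid sums had an unadjusted exact p of 0.0286. The marker Cdh5 supplied most of the endothelium sum: 1914 of 2556 CPM (CLP) and 1277 of 1841 CPM (Sham), as means. Of the 12 endothelium markers tested, 5 rose and 0 fell, for a list median of 0.34, or -0.21 with total-count scaling. Mean erythroid sums were 23.3 (CLP) and 7.31 (Sham) CPM, of which Car2 gave 9.36 and 1.09, and Alas2 8.90 and 4.71. Whether endothelial or erythroid cell content changed was not tested. The platelet sum rests largely on Clec1b, a lectin receptor on that list, with means of 234 of 406 CPM (CLP) and 278 of 299 CPM (Sham). Clec1b did not pass (log2 fold change -0.25, edgeR's adjusted p = 0.189), and whether its RNA came from platelets was not tested. The other 7 of the 8 tested platelet markers rose, for a list median of 2.85, with Pf4, platelet factor 4, at 148 ± 36.4 CPM in CLP, against 18.1 ± 5.84 CPM in Sham (log2 fold change 3.03 ± 0.26). With total-count scaling these 7 were still higher (list median 2.31), and Clec1b was lower (-0.80). Of the 4 tested lymphocyte markers 3 rose and Cd79b, a chain of the B cell receptor, fell, for a list median of 2.62, or 2.08 with total-count scaling. Of the markers tested, 4 for platelets and 3 for lymphocytes were under 1 CPM in Sham and may have passed the filter through CLP alone. The part of these cells in the levels of the 6 genes was not tested.

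Levels of different genes were compared per kilobase of annotated exon. In CLP the order was Cd163 (582 ± 43.9 CPM per kb), Lrp1 (321 ± 44.2), Hpx (158 ± 53.5), Hp (93.0 ± 24.9), Cp (36.6 ± 17.5) and Lcn2 (22.1 ± 14.9). In Sham it was Cd163 (619 ± 53.2 CPM per kb), Lrp1 (262 ± 17.7), Hpx (83.7 ± 36.9), Hp (62.2 ± 18.8), Cp (10.8 ± 3.55) and Lcn2 (2.24 ± 1.73). The receptors thus stood above the plasma proteins in each group. The ranges over libraries of Hpx and Hp overlapped in both groups and those of Cp and Lcn2 in CLP, while the ranges of all other neighbours were apart. Compared within each library, however, Hpx was above Hp per kb of annotated exon in every library. Likewise, Cp was above Lcn2 in every CLP library. By group means, the order of all 15 pairs was the same with total-count scaling, without each library in turn and with the length of the longest coding transcript. The order within single libraries was not compared with that other length, and it may differ there for Hpx and Hp.

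**Figure D5:**
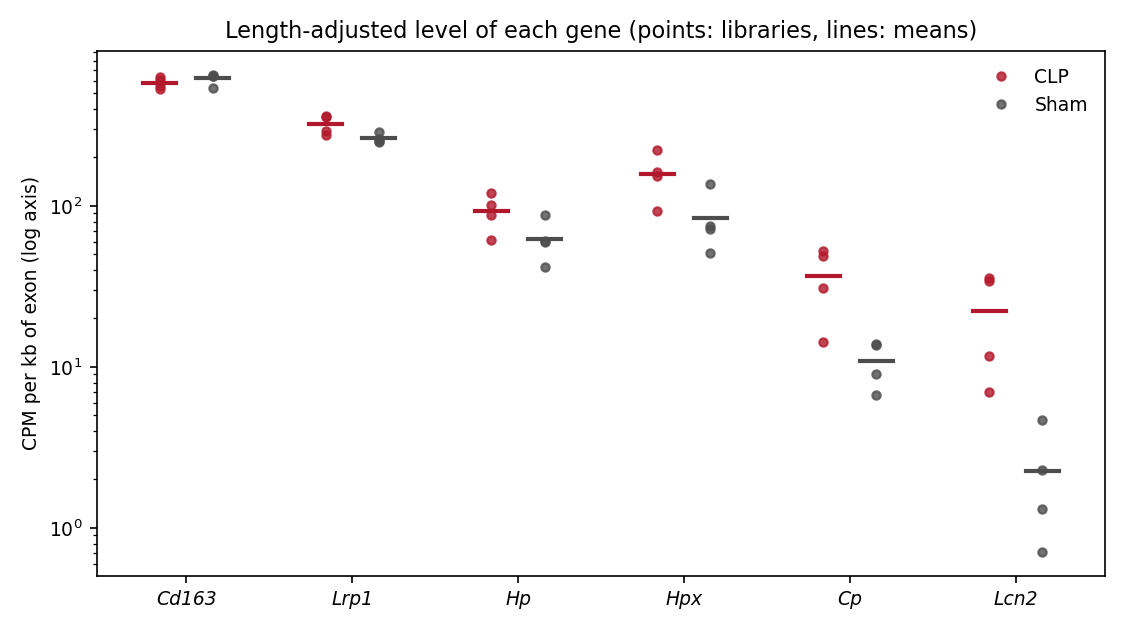
TMM-scaled CPM per kb of annotated exon on a log axis for the 6 genes, CLP in red left of Sham in grey, with a point per library and a line at each mean. Levels run from 582 (CLP) and 619 (Sham) for Cd163 to 22.1 (CLP) and 2.24 (Sham) for Lcn2.

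Promoter sequence is shown for genes that rose (Hpx, Cp and Lcn2) and, for contrast, for Cd163, so that the motifs of factors listed above can be seen in place. Sequences are from RefSeq on GRCm38.p6, whose table held 5 of the 6 genes, and are written 5′ to 3′ on the strand of the gene, with matches in capitals. On both strands the 250 bases before each start were searched for a kB-like motif (GGG and CC with any 5 bases between), a C/EBP-like motif TTNNGNAA and a STAT-like motif TTCNNNGAA. They occur in 45.8%, 36.8% and 7.0% of all 32851 promoter windows of that length. A match describes letters, not binding.

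The Cd163 window, chr6:124304401-124304650 on the + strand, holds 2 kB-like matches on the opposite strand and 2 overlapping C/EBP-like matches, shown as 1 run of capitals:
Cd163: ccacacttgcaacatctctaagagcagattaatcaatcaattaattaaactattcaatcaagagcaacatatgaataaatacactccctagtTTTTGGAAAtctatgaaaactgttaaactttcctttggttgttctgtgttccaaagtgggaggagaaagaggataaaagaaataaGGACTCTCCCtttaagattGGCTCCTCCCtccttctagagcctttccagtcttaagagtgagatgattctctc

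The Hpx window holds 2 C/EBP-like matches. Shown are its first 229 bases, chr7:105600138-105600366 on the - strand, which run from 250 to 22 bases before the start and stop at an annotated exon:
Hpx: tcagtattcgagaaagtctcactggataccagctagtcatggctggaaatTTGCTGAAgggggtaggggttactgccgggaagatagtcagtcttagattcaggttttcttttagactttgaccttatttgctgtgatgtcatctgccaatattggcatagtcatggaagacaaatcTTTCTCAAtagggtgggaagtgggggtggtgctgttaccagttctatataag

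The upstream Cp start, chr3:19956804-19957053 on the + strand, has 1 C/EBP-like match:
Cp: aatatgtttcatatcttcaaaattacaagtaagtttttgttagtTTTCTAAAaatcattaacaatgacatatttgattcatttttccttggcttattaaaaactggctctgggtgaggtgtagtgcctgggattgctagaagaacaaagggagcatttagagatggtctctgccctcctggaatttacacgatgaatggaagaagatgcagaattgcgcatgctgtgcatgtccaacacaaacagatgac

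An annotated exon of Cp begins 195 bases before a second annotated Cp start. The window of this second start has 1 kB-like and 1 C/EBP-like match, both past the point where that exon begins. They are shown as stretches of 30 bases at chr3:19957093-19957122 and chr3:19957168-19957197 on the + strand:
Cp kB-like: tgtttgttttGGTTTTTCCCcttcgtggtt
Cp C/EBP-like: attagttactcTTTTGCAAcattaaattgt

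The Lcn2 window opens inside an annotated exon of the gene, so only short stretches around the matches are shown. For Lcn2 the same motifs are at chr2:32387822-32387851 and chr2:32387937-32387966 on the - strand, where the kB-like match lies 102 to 93 and the C/EBP-like match 216 to 209 bases before the start:
Lcn2 kB-like: ggtaaaggatGGACTACCCCgcccaacagg
Lcn2 C/EBP-like: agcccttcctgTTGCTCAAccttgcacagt

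Of the 5 genes with a window, Lcn2, Cp and Cd163 hold a kB-like and a C/EBP-like match, Hpx C/EBP-like matches, and Lrp1 1 STAT-like match. The kB-like matches of Cp and Lcn2 lie past the first annotated exon base of their windows, while those of Cd163 lie before any. Cd163, which did not pass the test, thus holds matches to the same motifs as Cp and Lcn2, which rose.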

How the data were processed

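The labels' protocols name the Aurum Total RNA kit, Illumina TruSeq stranded libraries and an Element AVITI sequencer. The authors deposited whole read counts per Ensembl gene for 8 libraries. The submitters' processing notes list FastQC, STAR 2.7.10b, featureCounts, DESeq2 and mm39. Settings of these tools, such as strandedness in counting, are not given in the sources used. Symbols and exon lengths came from GENCODE M21 (GRCm38), and 52081 IDs, with 99.8% of the counts, had a symbol. Of 287 list entries 286 were found.

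After filterByExpr and TMM scaling, CLP was compared with Sham by the robust quasi-likelihood F-test of edgeR 4.0.16 (R 4.3.3), without covariates and with Benjamini-Hochberg adjustment over 14655 genes (threshold 0.05). The SE is the absolute log2 fold change over the square root of F. For likeness, log2 CPM had a prior count of 2. Marker sums had a two-sided exact permutation test over all 70 assignments of the libraries. Alternatives used DESeq2 1.42.0, limma voom 3.58.1, other scalings, no filter and leaving out each library. In data simulated for CLP against Sham over 14482 genes, edgeR recovered 4, 26, 47 and 46 of 50 genes at folds of 1.5, 2, 4 and 8, with 5 false calls of 128. Only these planted genes changed there, with no shift between the groups, while 54.3% of genes were called in the real comparison. The simulated rates therefore do not carry over to it.

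The 6 genes, the partner and marker lists and the tests were chosen with earlier results of these data known. Named genes were the 6, the 3 most abundant tested genes of each partner list, the 2 most abundant of each marker list, a fixed set of 14, and the 2 genes nearest in profile to each of the 6. Other genes named, among them most that fell where 5 or fewer did, and the within-library ratios, were chosen after their values were seen. Some genes that these rules name are not reported here. The replicate numbers are shared by the groups in the labels, which do not say whether they pair the libraries. Deviations of same-numbered libraries correlated at 0.17, -0.12, 0.13 and -0.09 across genes. Those of differently numbered libraries correlated at -0.41 to 0.33, so 4 such values cannot settle whether the numbers pair the libraries. The main test treated the libraries as unpaired.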

Additional observations from a re-analysis of the deposited data

Results flagged for a closer look

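In 152 groups of 4 libraries, 10 held a library farther from the other 3 than Dixon's 95% critical value allows, and chance gives about 1 in 20 groups. Of the 6 genes this concerned Cd163, whose Sham replicate 3 was at 2947 CPM against 3477 to 3570.5 CPM in the other Sham libraries; without it the log2 fold change was -0.15 (edgeR's adjusted p = 0.303). In CLP replicate 1, Fgg was at 159 CPM against 252 to 269 CPM in the other CLP libraries, Zfp811 at 39.7 CPM against 115 to 130.1 CPM, Treml4 at 463 CPM against 331 to 349.9 CPM, and Hba-a1 at 0.0416 CPM (1 count) against 0. In CLP replicate 3, Pf4 was at 93.8 CPM against 161 to 173 CPM in the other CLP libraries. In Sham replicate 1, Il1b was at 485 CPM against 194 to 241 CPM in the other Sham libraries, Il6 at 26.6 CPM against 14.7 to 16.3 CPM, and Trem1 at 17.3 CPM against 3.05 to 5.33 CPM. The summed cholangiocyte and mesothelium markers were at 4.29 CPM in Sham replicate 3 and at 1.89 to 2.14 CPM in the other Sham libraries.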

How the results depend on the processing

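Lcn2 and Cp kept their direction and passed under every alternative. With total-count scaling Lrp1 turned to -0.27, Cd163 passed at -0.64 and Hpx missed the threshold at 0.37; Hpx also missed it with no filter (0.86). DESeq2's test called Lrp1 (0.35) and Hp (0.64), and DESeq2 size factors called Hp (0.64). Leaving out each library in turn gave 6960 to 9232 genes past the threshold and log2 fold changes of -0.15 to -0.04 for Cd163, 0.23 to 0.37 for Lrp1, 0.43 to 0.80 for Hp, 0.71 to 1.27 for Hpx, 1.54 to 2.03 for Cp and 2.98 to 3.94 for Lcn2. With the replicate number as a block, 7794 genes passed in place of 7963, and the log2 fold changes were -0.09, 0.28, 0.59, 0.94, 1.67 and 3.23 in the same order, which changed no call among the 6. Total-count scaling called 10007 genes, 1715 higher and 8292 lower in CLP in place of 3644 and 4319; with upper quartile factors the split was 3139 and 4976. It also turned the ratio of summed markers to 0.834 for Kupffer cells, 0.816 for hepatocytes, 0.830 for monocytes, 0.948 for endothelium, 0.955 for stellate cells, 0.928 for platelets and 0.827 for lymphocytes. Leaving out each library, ratios were 1.15 to 1.26 for Kupffer cells, 1.35 to 1.45 for stellate cells, 1.27 to 1.42 for platelets and 2.00 to 3.83 for cholangiocytes, with exact p of 0.0286 to 0.0571 for the first 3 and 0.0286 to 0.229 for the last. Of the 59 other named genes 16 turned with total-count scaling: Cd5l (-0.27), Apoe (-0.22), C1qa (-0.35), Alb (-0.15), Trf (-0.20), C3 (-0.00215), Fga (-0.21), Lyz2 (-0.0623), Lgals3 (-0.0767), Clec4f (-0.28), Treml4 (-0.17), Plac8 (-0.18), Ecm1 (-0.13), Lrpap1 (-0.48), C1galt1c1 (-0.28) and Emc6 (-0.31). Lrpap1 also turned with upper quartile factors (-0.0321) and, leaving out each library, ranged from -0.0182 without CLP replicate 1 to 0.121 without CLP replicate 4. Stab2 (0.0125 and 0.0126) and Ntan1 (0.00332 and 0.00397) turned with DESeq2 size factors and DESeq2's test. With the longest coding transcript as the length, Cp was at 76.6 and Lcn2 at 63.5 CPM per kb in CLP. The causes were not tested beyond what each setting changes.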
